A study of Mus musculus with 6 samples.

Results

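The suppressors of cytokine signaling are a family of 8 proteins encoded by *Cish* and *Socs1* to *Socs7*. The members were chosen by name: every spot of the arrays that was not a control and whose gene name was one of these symbols was taken. This gave 8 genes of the 34787 gene names on the array, measured by 14 probes in 23 spots.

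RNA was taken from macrophages grown out of the bone marrow of wild type, female C57/B6 mice aged 6 to 8 weeks by the labels and kept for 7 days in medium conditioned by L929 cells (the published methods give another age range). The 3 groups of 2 arrays each were untreated cells, cells given LPS, the bacterial ligand of TLR4, for 4 h, and cells given 10 μM HBX41,108, an inhibitor of the deubiquitinating enzyme USP7, for 30 min before the same LPS treatment (LPS+inhibitor). The series record gives 100 ng/ml LPS, whereas the treatment label of the samples gives 100 ng per μl. Whether cells without inhibitor received its solvent is not stated in the sources used here, and there were no cells given inhibitor without LPS. The 2 samples of a group came from independent experiments.

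SOCS proteins are feedback inhibitors. Cytokine receptors signal through Janus kinases (JAKs), which phosphorylate STAT transcription factors, and STATs in turn switch on SOCS genes. Each SOCS protein binds phosphorylated tyrosines through an SH2 domain and, through its SOCS box, recruits elongins B and C and a cullin ubiquitin ligase, while SOCS1 and SOCS3 can also block JAK activity directly. In macrophages they are known for limiting the response to interferons and to cytokines of the IL-6 family.

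All 6 arrays lay on 1 slide that was read in 1 scan. Untreated cells lay in row 1 of the slide, LPS cells in row 2, and LPS+inhibitor cells in row 4, so slide row and treatment cannot be told apart. Between 25002 and 27467 of the 59305 spots per array were well above background, and 0 were saturated. The brightest probe of each of the 8 genes was well above background on all 6 arrays, so no member was lost to a filter on dim probes. The 7 macrophage markers, *Adgre1*, *Csf1r*, *Cd68*, *Itgam*, *Fcgr1*, *Cd14*, and *Lyz2*, were also well above background on every array.

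Of the 8 members, 4 have an entry in the RefSeq table of promoters (assembly GRCm38.p6), namely *Cish*, *Socs1*, *Socs3*, and *Socs4*. Sequence is shown for *Socs1*, *Socs3*, and *Cish*, which rose most with LPS among the 8 genes. Their windows also hold letters that factors downstream of cytokine receptors are known to bind. The windows run from 250 bases before the start of the gene to 50 bases after it and are read 5′ to 3′ on the strand of the gene. They were searched on both strands for TTCNNNGAA, the GAS motif bound by STAT dimers, for GAAANNGAAA, the core of the interferon-stimulated response element (ISRE), and for the κB consensus. The *Socs1* window (minus strand, chr16:10785537-10785786, the 250 bases before the start) held the ISRE core at 2 overlapping positions, −83 to −74 and −77 to −68 from the start, in capitals.
Socs1: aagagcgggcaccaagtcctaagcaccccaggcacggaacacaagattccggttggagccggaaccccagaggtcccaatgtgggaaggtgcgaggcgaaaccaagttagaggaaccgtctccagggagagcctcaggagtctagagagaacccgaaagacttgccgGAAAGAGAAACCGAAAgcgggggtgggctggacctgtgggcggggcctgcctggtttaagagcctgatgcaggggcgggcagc
The *Socs3* window (minus strand, chr11:117969367-117969616, the 250 bases before the start) held the GAS motif once, at −154 to −146 from the start, in capitals.
Socs3: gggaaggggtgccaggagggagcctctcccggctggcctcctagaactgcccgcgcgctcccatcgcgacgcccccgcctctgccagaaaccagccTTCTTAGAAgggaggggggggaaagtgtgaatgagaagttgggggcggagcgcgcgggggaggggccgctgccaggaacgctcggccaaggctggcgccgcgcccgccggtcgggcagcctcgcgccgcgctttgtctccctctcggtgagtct
The *Cish* window (plus strand, chr9:107296659-107296678) held the GAS motif at 2 positions just after the start, and only this stretch of 20 bases is shown, with both in capitals.
Cish: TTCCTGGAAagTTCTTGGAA
None of the 4 windows held the κB consensus, and that of *Socs4* held none of the 3 motifs. Among the 32851 windows of the table, 8.3% held the GAS motif, 3.44% the ISRE core, and 8.46% the κB consensus. A match describes the letters only.

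The first comparison asks what LPS alone did. Of the 8 genes, 6 were higher in LPS than in untreated cells (*Cish*, *Socs1*, *Socs2*, *Socs3*, *Socs4*, and *Socs7*), 1 was lower (*Socs6*), and *Socs5* did not pass the threshold, an adjusted p of 0.05 in the linear model fitted with limma. Over all gene names with a value, 7.98% were called higher and 12.8% lower (2776 and 4441 of 34786). With 75th percentile scaling, which moves the median of all gene names, 12154 were called higher and 4046 lower. The median difference of the 8 genes was 1.61 on the log2 scale, and that of all gene names was 0.0017. All values below are log2 of the quantile-normalized signal, on which 1 unit is a doubling, and differences are between group means with their 95% interval. The number of arrays, 2 in each group, limits the precision. In bulk samples, fewer cells with a transcript and less of it per cell cannot be told apart.

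**Figure D1:**
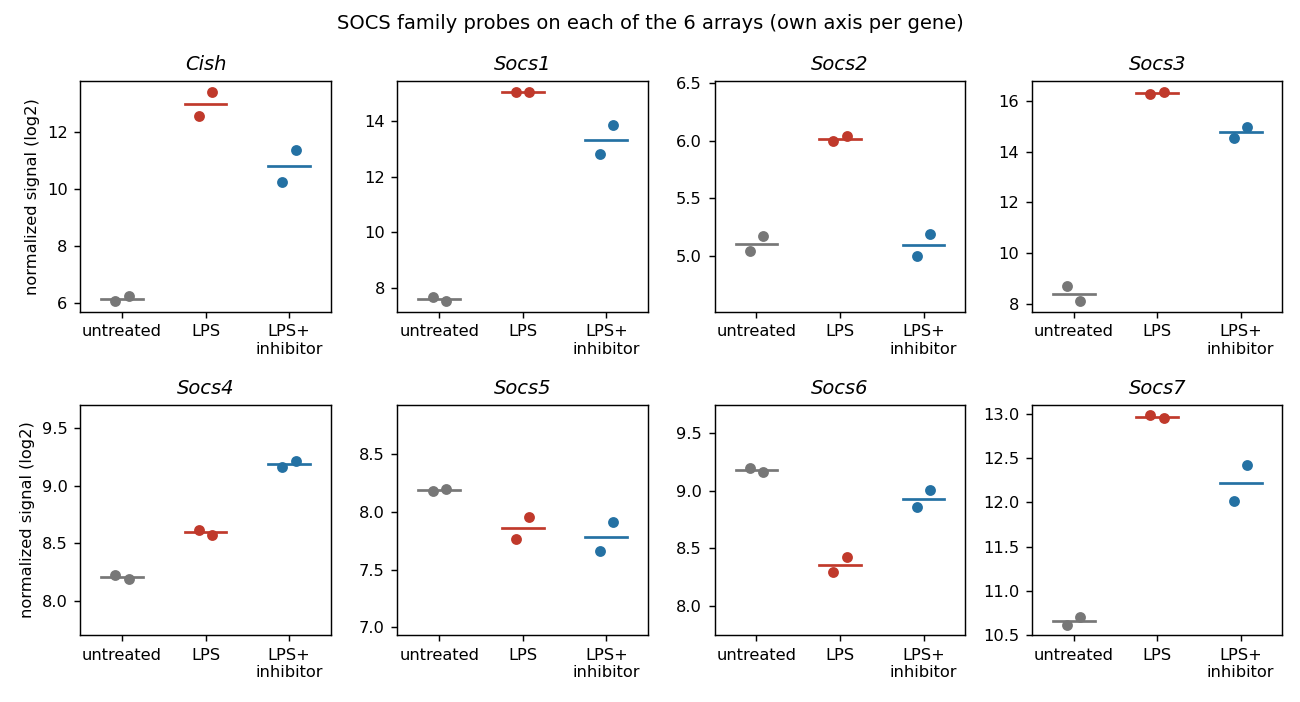
Normalized signal (log2) of the brightest probe of each SOCS gene on the 6 arrays. Points are arrays, horizontal lines are group means (n = 2), and each gene has its own axis. *Cish*, *Socs1*, and *Socs3* stand far apart between untreated and LPS cells, and *Socs4* is highest in LPS+inhibitor cells.

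*Socs3*, whose protein binds the gp130 chain of the IL-6 receptor and the JAKs attached to it, is measured by a probe on chromosome 11 from 117827480 to 117827539 (build mm9, as are all probe positions). Its signal was 8.70 and 8.10 in untreated cells, 16.25 and 16.37 in LPS cells, and 14.53 and 14.98 in LPS+inhibitor cells. Both LPS arrays were the highest, both untreated arrays the lowest, and no group overlapped another. LPS raised *Socs3* by 7.91 (7.16 to 8.66, adjusted p = 0.00261), a 241-fold difference.

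*Socs1*, which restrains signaling from interferon receptors by binding JAKs, is measured on chromosome 16 from 10783951 to 10784010. Its signal was 7.66 and 7.52 in untreated cells, 15.02 and 15.05 in LPS cells, and 12.80 and 13.84 in LPS+inhibitor cells. The LPS arrays were nearly equal, whereas those of LPS+inhibitor were 1 unit apart and still below both LPS arrays. The rise with LPS was 7.45 (6.42 to 8.48, adjusted p = 0.00338), or 175-fold.

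*Cish*, a target gene of STAT5 whose product competes with STAT5 at receptors, is measured on chromosome 9 from 107204196 to 107204255. Its signal was 6.07 and 6.26 in untreated cells, 12.56 and 13.42 in LPS cells, and 10.25 and 11.38 in LPS+inhibitor cells. The groups did not overlap, but the arrays within LPS and within LPS+inhibitor lay further apart than those of *Socs3*. The rise with LPS was 6.83 (5.42 to 8.23, adjusted p = 0.00539), or 114-fold, and 5.82 with normexp background correction.

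*Socs7*, linked to insulin receptor substrate signaling and measured on chromosome 11 from 97259763 to 97259822, had a signal of 10.62 and 10.71 in untreated cells, 12.98 and 12.95 in LPS cells, and 12.01 and 12.42 in LPS+inhibitor cells. Here too LPS arrays were highest and LPS+inhibitor arrays lay between the other groups. *Socs7* rose by 2.30 (1.87 to 2.74, adjusted p = 0.00484), or 4.93-fold. *Socs1*, *Socs3*, *Cish*, and *Socs7* were called higher in LPS cells under all 14 alternatives, including each array left out. With 75th percentile scaling the median of all gene names shifts by 0.40 in this comparison, and relative to it *Socs3* differed by 7.75, *Socs1* by 7.33, *Cish* by 6.67, and *Socs7* by 2.19.

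The other genes differed by less than 1 unit between LPS and untreated cells. *Socs2*, a regulator of growth hormone signaling on chromosome 10, had a signal of 5.04 and 5.17 in untreated cells, 5.99 and 6.04 in LPS cells, and 4.997 and 5.19 in LPS+inhibitor cells. The LPS arrays stood above the other 4, and the untreated and LPS+inhibitor arrays overlapped. Its rise with LPS was 0.91 (0.64 to 1.18, adjusted p = 0.0103), and 0.54 relative to the median of all gene names with 75th percentile scaling. Its size depends on the treatment of background, with 0.36 under normexp background correction. The rise missed the threshold with the authors' normalized values (adjusted p = 0.0589) and without untreated replicate 1 (0.0581), untreated replicate 2 (0.0518), LPS replicate 1 (0.0534), or LPS replicate 2 (0.0525), and its adjusted p ranged from 0.00444 to 0.0589 over the 14 alternatives.

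*Socs4*, which acts on the epidermal growth factor receptor and is measured on chromosome 14 from 47911161 to 47911220, had a signal of 8.23 and 8.19 in untreated cells, 8.62 and 8.57 in LPS cells, and 9.16 and 9.21 in LPS+inhibitor cells. The 3 groups were in steps, with replicates within a step close together. The rise with LPS was 0.39 (0.22 to 0.55, adjusted p = 0.0235). With 75th percentile scaling *Socs4* was also called higher (0.40, adjusted p = 0.0202), by about as much as the median of all gene names moved with that scaling, and its difference relative to that median was −0.0036. With dim probes left out, *Socs4* differed by 0.58 relative to a median of −0.19. It missed the threshold with the authors' normalized values (adjusted p = 0.176), and without untreated replicate 1 (0.0972), untreated replicate 2 (0.118), LPS replicate 1 (0.0856), or LPS replicate 2 (0.0654), with a range of 0.0167 to 0.176 over the alternatives.

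*Socs6*, which like *Socs7* is linked to insulin signaling, is measured by its brightest probe on chromosome 18 from 89038580 to 89038639. Its signal was 9.19 and 9.16 in untreated cells, 8.30 and 8.42 in LPS cells, and 8.86 and 9.004 in LPS+inhibitor cells. The LPS arrays were the lowest here, the reverse of the order in *Socs7*. *Socs6* fell by 0.82 with LPS (adjusted p = 0.00998), or −1.20 relative to the median with 75th percentile scaling, a call that was lost without untreated replicate 1 (0.0616) or untreated replicate 2 (0.0622), with a range of 0.00167 to 0.0622.

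*Socs5*, which acts on the epidermal growth factor receptor and is measured on chromosome 17 from 87536500 to 87536559, had a signal of 8.18 and 8.20 in untreated cells, 7.77 and 7.96 in LPS cells, and 7.66 and 7.91 in LPS+inhibitor cells. The LPS and LPS+inhibitor arrays overlapped, and both untreated arrays were above them. Its differences were −0.33 for LPS minus untreated (adjusted p = 0.184) and −0.40 for LPS+inhibitor minus untreated (adjusted p = 0.136), and neither passed. Relative to the median of all gene names with 75th percentile scaling they were −0.75 and −0.82. With normexp background correction *Socs5* was called lower in LPS+inhibitor than in untreated cells (−0.38, adjusted p = 0.041, with a range over the alternatives of 0.041 to 0.368).

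The second comparison asks what the USP7 inhibitor changed in LPS-treated cells. Of the 8 genes, *Socs2* was called lower in LPS+inhibitor than in LPS cells, and *Socs4* and *Socs6* were called higher, against 4.27% of all gene names called lower and 5.52% called higher. The difference was −0.92 for *Socs2* (−1.19 to −0.65, adjusted p = 0.0217), 0.59 for *Socs4* (0.42 to 0.75, adjusted p = 0.0205), and 0.57 for *Socs6* (0.33 to 0.81, adjusted p = 0.0391). The *Socs2* difference was −0.36 with normexp and −0.61 with the authors' normalized values. The −0.92 of *Socs2* is close in size to its rise with LPS, but both values use the LPS arrays. Relative to the median with 75th percentile scaling, *Socs2* differed by −0.76, against a rise of 0.54. The *Socs4* difference has the same sign as its rise with LPS, although that rise was −0.0036 relative to that median.

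The genes with the largest LPS responses were lower on both LPS+inhibitor arrays than on both LPS arrays, but did not pass the threshold. The difference was −1.56 for *Socs3* (−2.31 to −0.80, adjusted p = 0.0515), −1.72 for *Socs1* (−2.74 to −0.69, adjusted p = 0.0784), and −2.17 for *Cish* (−3.57 to −0.77, adjusted p = 0.0912). For *Socs7* it was −0.75 (−1.19 to −0.32, adjusted p = 0.073). These calls depend on the processing: all 4 genes passed with normexp background correction (adjusted p = 0.00434, 0.0098, 0.0172, and 0.0145 in the order named) and with dim probes left out (0.0122, 0.0195, 0.0225, and 0.0288). More of all gene names were called lower there too: 2372 of 34786 with normexp and 2359 of 18320 with dim probes left out, against 1485 of 34786. Leaving out dim probes left the differences of the 4 genes as they were. *Socs3*, *Socs1*, and *Cish* also passed with the authors' normalized values (0.0249, 0.0342, and 0.0465), where 1241 of all gene names were called lower. *Socs3* has 1 probe, so taking the mean of all probes of a gene left its difference at −1.56. Its adjusted p was 0.0423 in that setting, where the fit and the adjustment ran over gene names instead of probes. Over the 14 alternatives the adjusted p ranged from 0.00434 to 0.172 for *Socs3*, from 0.0098 to 0.229 for *Socs1*, from 0.0172 to 0.248 for *Cish*, and from 0.0145 to 0.222 for *Socs7*. With 1 array left out, *Socs1* passed without LPS+inhibitor replicate 1 (0.0379) and without LPS+inhibitor replicate 2 (0.0241), and *Socs7* without LPS+inhibitor replicate 2 (0.0315).

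The calls of *Socs2*, *Socs4*, and *Socs6* were not stable either. With the replicate number as a block in the fit, *Socs6* no longer passed (adjusted p = 0.0581), whereas *Socs2* (0.0380) and *Socs4* (0.0459) did. Of the 14 alternatives, *Socs2* passed in 6 (adjusted p from 0.00856 to 0.0885 over all 14), *Socs4* in 7 (0.00735 to 0.107), and *Socs6* in 3 (0.0107 to 0.81). Fitting only the 2 groups compared gave an adjusted p of 0.0697 for *Socs2*, 0.0728 for *Socs4*, and 0.109 for *Socs6*. The smallest adjusted p of any gene name in that limma fit was 0.0561, so 0 passed and the loss is not particular to these genes. For this comparison, leaving out untreated replicate 1 or untreated replicate 2 amounts to the same fit, so the 14 alternatives count it more than once. Without LPS replicate 1 or LPS replicate 2, the adjusted p was 0.083 or 0.0814 for *Socs2*, 0.0643 or 0.0671 for *Socs4*, and 0.125 or 0.0874 for *Socs6*. Without LPS+inhibitor replicate 1 it was 0.0547 for *Socs2*, 0.0539 for *Socs4*, and 0.0725 for *Socs6*, and without LPS+inhibitor replicate 2 *Socs6* alone was lost (0.0814).

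**Figure D2:**
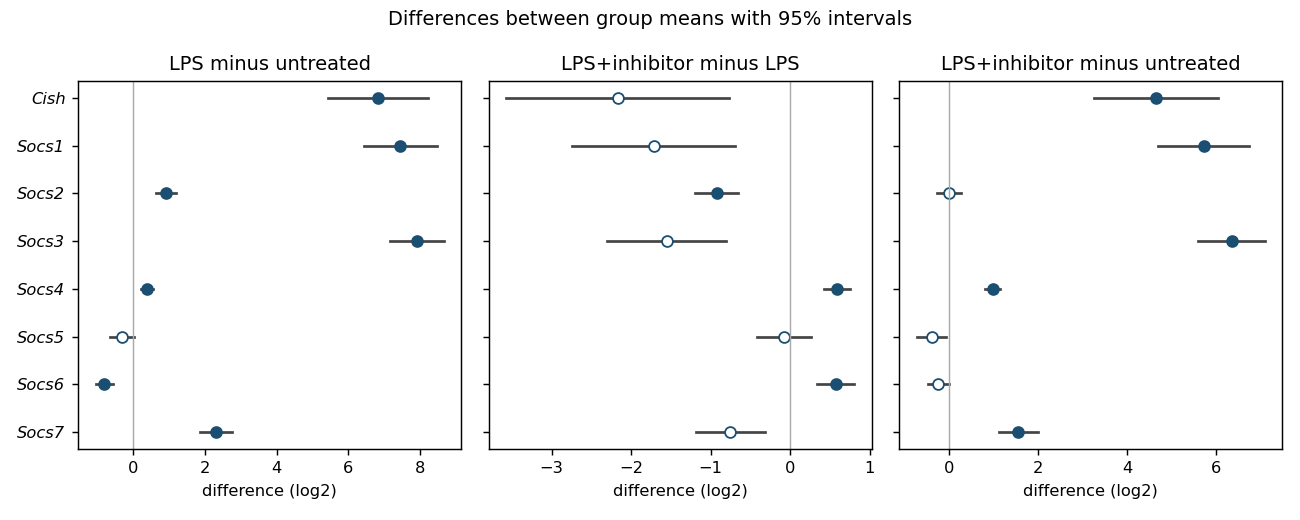
Differences between group means (log2, points) with 95% intervals (lines) for the brightest probe of each SOCS gene in the 3 comparisons. Filled points passed an adjusted p of 0.05 and open points did not. In LPS+inhibitor minus LPS, the intervals of *Cish*, *Socs1*, *Socs3*, and *Socs7* lie below 0 although their adjusted p values did not pass.

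**Figure D3:**
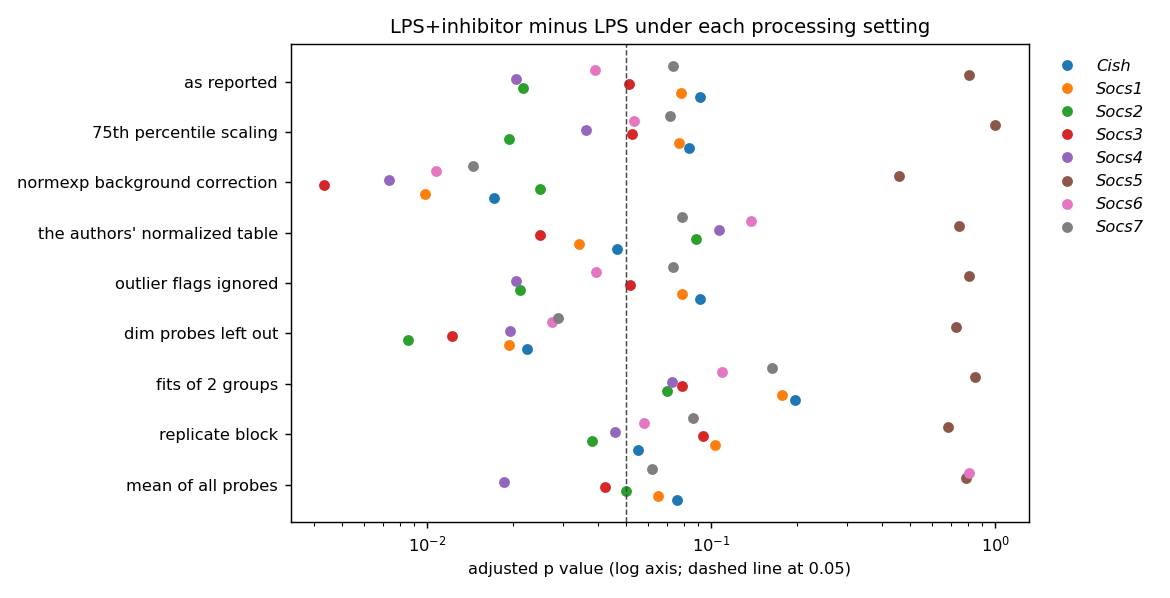
Adjusted p value (log axis) of each SOCS gene in LPS+inhibitor minus LPS under the processing used for the reported values (as reported) and 8 alternatives. The dashed line is 0.05. *Socs5* is far to the right in every row, and the other genes cross the line from one row to another.

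Compared with untreated cells, 5 of the 8 genes were higher in LPS+inhibitor cells and 0 were lower, against 6.17% and 8.71% of all gene names. *Socs3* was higher by 6.36 (adjusted p = 0.00498), *Socs1* by 5.73 (0.00695), *Cish* by 4.65 (0.0147), *Socs7* by 1.55 (0.0129), and *Socs4* by 0.97 (0.00644). With 75th percentile scaling, which shifts the median of all gene names by 0.44 here, the differences relative to that median were 5.99, 5.34, 4.27, 1.18, and 0.54 in the order named. *Socs3* was still 81.9-fold, *Socs1* 53.1-fold, and *Cish* 25.2-fold above untreated cells, although the *Cish* difference was 3.72 with normexp. Leaving out an untreated array leaves 1 in that group, and fewer of all gene names were then called higher and lower. The calls of *Cish* and *Socs7* were lost without untreated replicate 1 or untreated replicate 2, and that of *Socs1* without untreated replicate 2. The *Cish* difference was 4.56 without untreated replicate 1 and 4.75 without untreated replicate 2, against 4.65. The *Socs1* difference was 5.66 without untreated replicate 2, against 5.73. *Socs2* differed from untreated cells by −0.01 (−0.28 to 0.25, adjusted p = 0.995) and *Socs6* by −0.25 (−0.49 to −0.01, adjusted p = 0.18), and neither passed. With the mean of all probes the *Socs6* difference was −0.79 and was called lower (adjusted p = 0.0253). Relative to the median of all gene names with 75th percentile scaling, *Socs6* differed by −0.66 and *Socs2* by −0.24. Each pair of the 3 comparisons shares arrays, so their values stand side by side only.

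*Socs2* and *Socs6* have 4 probes each, which can be compared within a gene. The brightest *Socs2* probe was spotted 10 times per array, and 2 other probes for the same transcript start at 94875187 and 94875468 on chromosome 10. The probe at 94875187 gave 4.93 and 4.96 in untreated, 6.03 and 6.15 in LPS, and 4.72 and 5.45 in LPS+inhibitor cells. The probe at 94875468 gave 4.47 and 4.76, 5.87 and 5.76, and 4.71 and 5.14 in the same order. All 3 were highest on the LPS arrays, but for LPS+inhibitor minus LPS these 2 did not pass (adjusted p = 0.118 and 0.079). The probe at 94875187 did not pass for LPS minus untreated either (adjusted p = 0.0624). The remaining probe, for another transcript model, never stood well above background.

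The probes of *Socs6* disagree. The probe at 89036691, with 6.94 and 7.11 in untreated cells, was 6.02 and 5.97 in LPS and 5.44 and 5.76 in LPS+inhibitor cells, so it was lowest with the inhibitor, where the brightest probe was called higher. Its difference for LPS+inhibitor minus LPS was −0.40 (adjusted p = 0.211), and it fell by 1.43 from untreated to LPS+inhibitor cells (adjusted p = 0.0124). The probe at 89037298 was 5.85 on both untreated arrays and not well above background in either treated group, at least 2.53-fold lower in LPS (adjusted p = 0.0302) and at least 2.86-fold lower in LPS+inhibitor cells (adjusted p = 0.0401). For each dim array these bounds use the higher of the probe's own signal and the dimmest signal that still stood well above background there. The remaining probe never stood well above background. A fall of *Socs6* with LPS was called by 3 of its probes, and a rise with the inhibitor by 1, so the higher *Socs6* in LPS+inhibitor than in LPS cells rests on a single probe. With the mean of all probes, *Socs6* was 0.07 higher (adjusted p = 0.81).

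**Figure D4:**
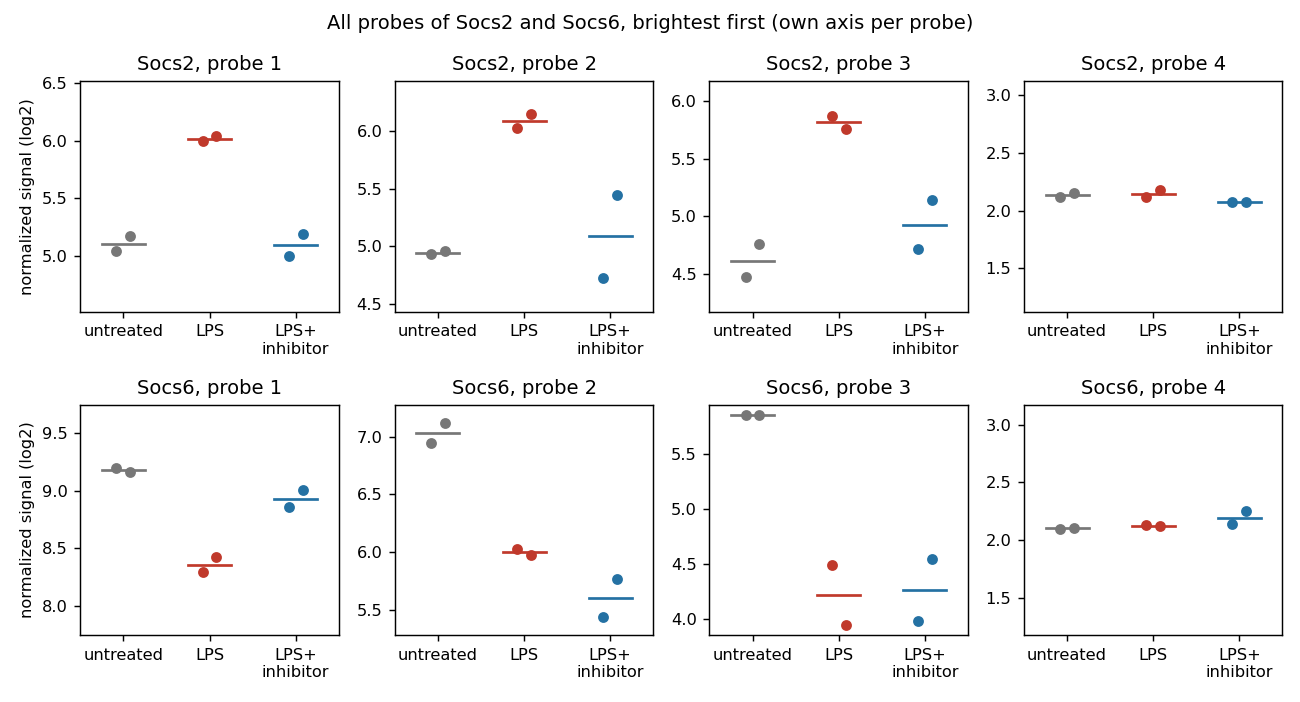
Normalized signal (log2) of the 4 probes of *Socs2* (upper row) and of *Socs6* (lower row) on the 6 arrays, brightest first, each on its own axis. Points are arrays and lines are group means (n = 2). The first 3 *Socs2* probes peak in LPS cells, whereas the first and second *Socs6* probes differ in the order of LPS and LPS+inhibitor cells.

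By the smallest root mean square difference of 6 centred log2 values, among 11651 other genes well above background on all arrays, the genes most like *Socs1* were *Ccl12* (0.28), *Socs3* (0.34), and *Cmpk2* (0.37). Those most like *Socs3* were *Serpinb2* (0.32), *Socs1* (0.34), and *Tnf* (0.36), and those most like *Cish* were *Ifit1bl1* (0.39), *Upp1* (0.39), and *Cmpk2* (0.43). So *Socs1* and *Socs3* are in each other's nearest 3.

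The other genes of the pathway were taken as 68 genes in 6 lists, all found on the array. With LPS, 23 of the 68 were higher and 14 lower, with a median difference of 0.23, where 7.98% of all gene names were called higher and 12.8% lower. These counts were 36 and 8 with 75th percentile scaling, under which 12154 of all 34786 gene names were called higher. They were 20 and 8 in fits of 2 groups, where 2585 and 4024 of all gene names were called. With any 1 array left out both counts were lower, and fewer of all gene names were called higher and lower too. The count of lower was 7 with the authors' normalized table. In LPS+inhibitor minus LPS, 9 were higher and 16 lower, with a median of −0.26, against 5.52% and 4.27% of all gene names. In LPS+inhibitor minus untreated, 14 were higher and 13 lower, with a median of 0.10, against 6.17% and 8.71% of all gene names. There 25 were higher with 75th percentile scaling, under which 12190 of all gene names were called higher, and 8 in fits of 2 groups. Here too both counts of the 68 genes, and those of all gene names, were lower with any 1 array left out. The median over all gene names was 0.0017, 0.00088, and −0.0020 in the same order. In LPS+inhibitor minus LPS, limma fits of 2 groups called 0 of all gene names higher and 0 lower, so the next loss is not particular to these lists. All 25 calls in LPS+inhibitor minus LPS, those described next included, were lost in limma fits of 2 groups, without untreated replicate 1, and without untreated replicate 2. With 1 LPS or LPS+inhibitor array left out, both counts of the 68 genes in that comparison were lower, and so were those of all gene names.

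The counts of each list below stand beside shares over all gene names of 7.98% higher and 12.8% lower with LPS. In LPS+inhibitor minus LPS these shares were 5.52% and 4.27%. Of 12 cytokines that signal through JAKs, 7 were higher and 1 lower with LPS, and 1 was higher and 2 lower in LPS+inhibitor than in LPS cells. *Il6*, the main ligand of the receptor that SOCS3 limits, was 5.44 and 4.54 in untreated, 16.71 and 16.97 in LPS, and 13.63 and 14.95 in LPS+inhibitor cells. It rose by 11.86 with LPS (adjusted p = 0.00326), and its difference of −2.55 with the inhibitor did not pass (0.0831). *Il27* fell by 3.40 (adjusted p = 0.0313) and *Csf2* fell by 2.95 (0.0215), the latter well above background on 1 of 2 LPS+inhibitor arrays. *Ifnb1*, interferon beta, was 12.01 and 12.85 in LPS and 12.87 and 12.52 in LPS+inhibitor cells. These groups overlap, with a difference of 0.26 (−0.73 to 1.26, adjusted p = 0.766), and both are far above the 4.80 and 4.34 of untreated cells, where it was well above background on 1 array. *Il10* rose by 2.98 with LPS (adjusted p = 0.0212) and *Osm* by 1.18 (0.0415), and neither passed with the inhibitor, where *Il10* differed by −1.48 (adjusted p = 0.15) and *Osm* by 0.41 (0.455). *Csf3* was well above background on 1 LPS array only, and *Lif* on none. The cytokine called higher with the inhibitor was *Il4*, which was not well above background in either group.

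Of 21 receptor chains, 5 were higher and 6 lower with LPS, and 2 were higher and 3 lower in LPS+inhibitor than in LPS cells. *Il6st*, which encodes gp130, the docking chain of SOCS3, was 10.73 and 10.699 in untreated, 9.46 and 9.08 in LPS, and 11.05 and 10.72 in LPS+inhibitor cells. It fell by 1.44 with LPS (adjusted p = 0.0158) and was 1.61 higher in LPS+inhibitor than in LPS cells (0.0252), where its arrays overlapped those of untreated cells. The interferon receptor chain *Ifnar1* fell by 0.97 (adjusted p = 0.0397) and the common gamma chain *Il2rg* by 1.06 (adjusted p = 0.0139) with the inhibitor.

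Of 11 JAKs and STATs, 7 were higher and 0 lower with LPS, 0 were higher and 6 lower in LPS+inhibitor than in LPS cells, and all 11 differences in that comparison were below 0, with a median of −1.47. Over all gene names, 17307 of 34786 differences in that comparison were below 0, and 4.27% were called lower. The 6 calls, too, ended in fits of 2 groups, where limma called 0 of all gene names in LPS+inhibitor minus LPS. *Stat5a*, a STAT5 gene, was 9.80 and 9.76 in untreated, 12.98 and 12.89 in LPS, and 10.33 and 10.90 in LPS+inhibitor cells. It rose by 3.16 with LPS (adjusted p = 0.00465) and fell by 2.32 with the inhibitor (0.0178), an order it shares with *Cish*. *Stat5b*, the other STAT5 gene, does not share that order. It rose by 0.81 with LPS (adjusted p = 0.0143) and fell by 1.54 with the inhibitor (0.0126). In LPS+inhibitor cells *Stat5b* was 0.73 lower than in untreated cells (0.0232). A link of either gene to *Cish* was not tested. *Jak2* rose by 3.94 with LPS (adjusted p = 0.00493) and fell by 2.24 with the inhibitor (0.0268). *Stat4* fell by 2.16 with the inhibitor (adjusted p = 0.0388). *Stat3*, which acts below gp130, rose by 1.10 with LPS (adjusted p = 0.0235), and its difference of −0.98 with the inhibitor did not pass (0.0503).

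Of 10 other inhibitors of the pathway, 2 were higher and 2 lower with LPS, and 2 were higher and 4 lower with the inhibitor. *Usp18*, which dampens interferon receptors, rose by 3.58 (adjusted p = 0.00438) and fell by 1.75 (0.0298), and the phosphatase gene *Ptpn2* rose by 1.64 (0.00412) and fell by 0.61 (0.0436). The phosphatase gene *Ptpn6* fell by 1.48 with the inhibitor (adjusted p = 0.0181), and *Pias2* was 0.63 higher (0.0389).

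Of 8 partners of the SOCS box in ubiquitin ligases, 1 was higher and 3 lower with LPS, and 2 were higher and 0 lower with the inhibitor. *Ube2f*, a NEDD8-conjugating enzyme that acts on cullin 5, rose by 1.49 with LPS (adjusted p = 0.00401) and was a further 0.57 higher with the inhibitor (0.0391). *Eloc*, elongin C, was 0.50 higher with the inhibitor (adjusted p = 0.0268). Of 6 other SOCS-box proteins, 1 was higher and 2 lower with LPS, and 2 were higher and 1 lower with the inhibitor. *Spsb1* rose by 2.44 with LPS (adjusted p = 0.00245) and fell by 1.46 (0.0104). *Spsb2* fell by 2.76 with LPS (adjusted p = 0.00281) and was 1.17 higher with the inhibitor (0.0178), as *Spsb4* was by 2.14 (0.0322).

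Markers of other cell types were also measured. Of 6 neutrophil markers, 4 were well above background on all arrays, the brightest being *Elane*, and the sum of their quantile-normalized linear signals was 4460 and 4245 in untreated, 4144 and 4253 in LPS, and 4541 and 4784 in LPS+inhibitor cells. Their median log2 signal was 6.65 and 6.31, 7.66 and 8.15, and 5.72 and 7.09 in the same order. The sum for the 7 macrophage markers, of which *Csf1r* was the brightest, was 728017 and 720467, 722688 and 747733, and 627769 and 587012 in the same order. The macrophage medians were 15.98 and 15.82, 16.94 and 17.02, and 15.99 and 16.26. Both LPS arrays thus had the highest medians of both lists, although the sums did not rise alike. The macrophage sums of LPS+inhibitor cells were below both sums of LPS cells. Of 5 dendritic cell markers (brightest *Ccr7*), 1 was well above background on all arrays and 3 on none, with sums of 1399 and 1036, 1896 and 1065, and 1046 and 877. Of 6 lymphocyte markers (brightest *Cd3e*), 2 were on all arrays and 1 on none, with sums of 905 and 618, 1195 and 720, and 1080 and 808.

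Of 4 mast cell and basophil markers (brightest *Mcpt8*), 0 were well above background on all arrays and 1 on none, with sums of 48.7 and 211 in untreated, 102 and 28.5 in LPS, and 45.4 and 22.3 in LPS+inhibitor cells. Of 5 stromal markers (brightest *Pdgfrb*), 0 were on all arrays and 2 on none, with sums of 59.6 and 79.7, 553 and 547, and 74.96 and 98.8. *Pdgfrb* was 2.86 and 4.34 in untreated, 8.89 and 8.89 in LPS, and 3.02 and 5.22 in LPS+inhibitor cells. It stood well above background on both LPS arrays but on 1 of 2 untreated and 1 of 2 LPS+inhibitor arrays, so the size of its rise with LPS (adjusted p = 0.0321) rests partly on background. The dendritic cell marker *Zbtb46* did not stand well above background on either untreated array and was at least 5.65-fold higher in LPS cells (adjusted p = 0.00435). Among macrophage markers, *Cd14* rose by 1.69 with LPS (adjusted p = 0.00518) and fell by 1.31 with the inhibitor (0.0184), and *Fcgr1* fell by 1.60 with the inhibitor (0.0317). Both were picked after their values were seen and do not stand for the list. The macrophage sums of untreated and LPS cells overlapped, and the other macrophage markers are not described singly. The part of cell composition in the SOCS values was not tested.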

How the data were processed

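The authors deposited the output of the scanner software (Agilent Feature Extraction 10.7.3.1 per the file headers), in which each spot has intensity values corrected for background but not normalized between arrays, and a table of log2 values which the authors normalized by quantiles with limma. The deposited files also hold yes-or-no marks for spots that are outliers, saturated, or well above background. Here log2 of the processed signal was quantile-normalized, outlier spots were dropped, and a probe's remaining spots were averaged. No filter on dim probes was applied. Groups were compared with limma 3.58.1 in R 4.3.3, all 3 groups in 1 fit, and p values were adjusted by Benjamini-Hochberg over all probes. A gene was represented by its probe with the highest mean. Names were updated through RefSeq where an accession, symbol, or synonym matched (26762, 3819, and 639 of 55681 probes), and all 11 SOCS probes matched by accession kept their name. The fit was tested on simulated data. Alternatives were 75th percentile scaling, normexp background correction (offset 50), the authors' table, a filter on dim probes, outlier spots kept, the mean of all probes, fits of 2 groups, a replicate block, and each array left out. Named were all members, 12 fixed pathway genes (of which 1 is not reported here), and in each list up to 3 genes with the largest LPS+inhibitor minus LPS difference past the threshold, if well above background on both arrays of either group. *Il4*, *Stat5b*, *Zbtb46*, *Pdgfrb*, *Cd14*, and *Fcgr1* were named after their values were seen. The members and lists were chosen with earlier results of these data known.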

Additional observations from a re-analysis of the deposited data

How the results depend on the processing

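Of 336 values for the 8 genes under 14 alternatives, 268 kept direction and side of the threshold, 43 no longer passed, 17 newly passed, and 8 changed sign, none of them past the threshold. For *Socs2* in LPS+inhibitor minus untreated the sign changed with 75th percentile scaling (0.20), the authors' table (0.012), outlier spots kept (0.024), the mean of all probes (0.095), and without untreated replicate 2 (0.050) or LPS+inhibitor replicate 1 (0.081), and with 1 array left out it ranged from −0.11 to 0.081. For *Socs5* in LPS+inhibitor minus LPS it changed without LPS replicate 2 (0.016) or LPS+inhibitor replicate 1 (0.048), with a range of −0.20 to 0.048.

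In LPS+inhibitor minus LPS, SOCS genes called lower numbered 1, but 5 with normexp background correction, 5 with dim probes left out, 3 with the authors' table, and 0 with fits of 2 groups. Those called higher numbered 2, but 1 with 75th percentile scaling, 1 with the mean of all probes, 0 with the authors' table, and 0 with fits of 2 groups. Of all gene names, 1485 of 34786 were called lower in that comparison, 2372 of 34786 with normexp, and 2359 of 18320 with dim probes left out. In LPS+inhibitor minus untreated, 0 SOCS genes were lower, but 1 with normexp and 1 with the mean of all probes. With 1 array left out the SOCS counts ranged, higher and lower, from 4 to 6 and 0 to 1 for LPS minus untreated, 0 to 1 and 0 to 3 for LPS+inhibitor minus LPS, and 2 to 5 and 0 to 0 for LPS+inhibitor minus untreated. For a group left with 1 array, the spread is taken from the other groups.

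Of the 68 pathway genes, LPS minus untreated gave 36 higher (23) and 8 lower (14) with 75th percentile scaling, 7 lower with the authors' table, and 8 lower with fits of 2 groups. LPS+inhibitor minus LPS gave 28 lower (16) with normexp, 26 with dim probes left out, 3 higher (9) with the authors' table, and 0 in both directions with limma fits of 2 groups. LPS+inhibitor minus untreated gave 25 higher (14) with 75th percentile scaling and 8 with fits of 2 groups. With 1 array left out the ranges, higher and lower, were 13 to 20 and 5 to 8, 0 to 4 and 0 to 11, and 6 to 13 and 3 to 9.

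With 75th percentile scaling, all gene names called with LPS were 12154 higher and 4046 lower, against 2776 and 4441, and in LPS+inhibitor minus untreated 12190 and 3352, against 2146 and 3029. That scaling shifted the median of all gene names by 0.40 and 0.44, and leaving out dim probes by −0.19 in LPS minus untreated. In LPS+inhibitor minus LPS, limma called 0 genes in fits of 2 groups and without an untreated array, although 4331 were higher and 3672 lower at an unadjusted p under 0.05, against 1919 and 1485 called. Called were 2880 and 2372 of 34786 with normexp, and 2774 and 2359 with dim probes left out, where only 18320 gene names were tested. With 1 array left out, all gene names called ranged, higher and lower, from 1138 to 2585 and 1642 to 4024, 0 to 1906 and 0 to 1185, and 475 to 1997 and 562 to 1952 in the 3 comparisons, and fits of 2 groups gave 1348 and 1952 in the last. At an unadjusted p under 0.05 in LPS+inhibitor minus LPS, 2 SOCS genes were higher and 5 lower. The cause of these shifts was not tested.

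The replicate numbers were not taken to pair the samples. Differences between replicates 1 and 2 correlated with r = 0.47, 0.40, and 0.42 between groups, and number and slide column coincide. With the replicate block, 1 SOCS gene was called higher in LPS+inhibitor minus LPS, and *Socs6* no longer passed (adjusted p = 0.0581).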
